A study of Mus musculus with 8 samples.

Results

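The dental mesenchyme regulators Prrx1, Prrx2, Pax9, Barx1, Lhx6, Lhx8, Pitx1, Twist1 and Twist2 were followed in mouse molars after deletion of Runx2 was induced in Gli1-expressing cells. They were taken by gene name from a list of 10, and 9 of those stand among the 17631 genes of the authors' deposited table. Alx1, the remaining name, has no row there and was not analysed here. Of the 9, Prrx1 was the 1 whose level changed past the threshold, upward, and it did not pass once a trend on base composition and length was subtracted. The other 8 stayed within 1.27-fold of the control and none passed.

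The mesenchyme of the jaw and teeth descends largely from the cranial neural crest, and these factors mark and pattern it. Barx1, a homeobox gene, is known for marking the molar-forming mesenchyme, and Pax9, a paired-box gene, is required for tooth germs to develop past the bud stage. The LIM-homeobox genes Lhx6 and Lhx8 act together in the mesenchyme of the first pharyngeal arch, where molar formation depends on them. Pitx1 is a bicoid-type homeobox gene of the developing jaw and hindlimb. Prrx1 and Prrx2 encode paired-related homeodomain proteins of craniofacial and limb mesenchyme. Twist1 and Twist2 encode basic helix-loop-helix proteins that hold back osteoblast differentiation, and their products are known to bind RUNX2 and restrain it.

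The samples were the apical part of lower first molars from C57BL/6 mice at postnatal day 7.5, in 2 groups of 4 libraries. Controls were Runx2fl/fl and mutants were Gli1-CreERT2;Runx2fl/fl, so both groups carried the floxed alleles and only the mutants carried the tamoxifen-inducible recombinase under Gli1 control. The labels describe tamoxifen at 1.5 mg per 10 g of body weight, by intraperitoneal injection at postnatal day 3.5, without separating the groups. An effect of the driver and an effect of Runx2 loss therefore cannot be told apart. The sample details used here do not give sex. The Y-linked genes Ddx3y, Uty and Eif2s3y had higher means in mutants (log2 ratios 0.99, 0.88 and 0.73). Other sex-linked genes were not examined. A different sex make-up of the groups therefore cannot be told apart from genotype either. RNA came from the whole apical tissue, not from sorted Gli1-lineage cells. The files give group means and no value per library, so no value below carries a spread or a depth, and no count of libraries that share a direction can be given. Unless a sentence says otherwise, group means, fold sizes and p-values are those of the authors' deposited table, and log2 ratios were computed from its ratio of mutant to control. Where means are given as a pair without a group name, the mutant comes first. Runx2 itself had means of 65.1 in mutants and 105.5 in controls (the authors' adjusted p = 0.0646), and Gli1 had 19.9 and 38.8 (adjusted p = 0.0228, or 0.0657 once a trend on GC content and transcript length was subtracted). The odontoblast gene Dspp, at 7360 and 7714, and the keratin gene Krt14, at 923.5 and 973.2, are defining markers of dentin-forming cells and dental epithelium, and both were abundant.

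Shown here are the promoter sequences of Prrx1, the member called in the deposited comparison, and of the 2 TWIST genes. The TWIST genes are the members with the closest link to RUNX2. Whether these sequences bear on the measured levels was not tested. Each sequence is the part of the 250 bases before the RefSeq start (GRCm38.p6) that lies in no annotated untranslated or coding exon. All are written 5′ to 3′ along the gene. Capitals mark TAATTA, a core that homeodomain proteins such as PRRX and LHX factors recognise. The Prrx1 promoter is at chr1:163313711-163313900 (minus strand), that of Twist1 at chr12:33957421-33957670 (plus strand) and that of Twist2 at chr1:91801211-91801460 (plus strand).
Prrx1: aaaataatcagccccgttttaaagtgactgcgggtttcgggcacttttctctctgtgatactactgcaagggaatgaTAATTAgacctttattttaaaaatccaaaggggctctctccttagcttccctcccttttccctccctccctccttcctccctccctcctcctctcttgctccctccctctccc
Twist1: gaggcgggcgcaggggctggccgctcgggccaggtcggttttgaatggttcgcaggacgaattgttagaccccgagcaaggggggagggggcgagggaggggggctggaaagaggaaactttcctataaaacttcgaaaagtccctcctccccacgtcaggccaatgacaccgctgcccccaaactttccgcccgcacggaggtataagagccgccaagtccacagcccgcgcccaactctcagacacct
Twist2: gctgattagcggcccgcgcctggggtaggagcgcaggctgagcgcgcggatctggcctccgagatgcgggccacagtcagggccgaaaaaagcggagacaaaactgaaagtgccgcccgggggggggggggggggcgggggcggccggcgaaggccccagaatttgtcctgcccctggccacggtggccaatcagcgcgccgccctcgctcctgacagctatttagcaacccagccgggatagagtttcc

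The RefSeq table gave windows for 8 of the 10 names, which were Prrx1, Prrx2, Pax9, Barx1, Lhx6 (3 windows), Lhx8, Twist1 and Twist2, which made 10 windows. TAATTA occurred once among them, 173 to 168 bases before the Prrx1 start, and 4.84% of all 32851 windows hold it. The RUNX core TGTGGT, read on both strands, occurred in 0 of the 10 windows, against 14.0% of all windows. The GLI motif GGGTGGTC also occurred in 0 of 10, against 0.703%, and the PITX core TAATCC, which shares its first 4 letters with TAATTA, in 0 of 10, against 6.25%. The E-box CANNTG, the kind of element that TWIST proteins bind, lay in 2 of 10 windows, those of Pax9 and of 1 Lhx6 start, against 66.2%. The Prrx1 window had 47.6% GC, the Twist1 window 62.4% and the Twist2 window 68.8%, beside a median of 52.4% over all windows. These matches describe letters in a short window and say nothing about binding.

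The members include 3 pairs of paralogs, so the reads of 50 nt could in principle be split between them. The longest exact stretches that their annotated transcripts share (GENCODE M21) are shown because they set how far that can happen.
Prrx1 and Prrx2: tcaacatggccaacagcat
Twist1 and Twist2: ctgcgcaagatcatccccacgct
Lhx6 and Lhx8: caggacaacaaccc

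The stretches are 19, 23 and 14 bases long, all shorter than a read. That of the PRRX pair lies at chr1:163248325-163248343 and chr2:30880845-30880863, that of the TWIST pair at chr12:33958380-33958402 and chr1:91801891-91801913, and that of the LIM pair at chr2:36091381-36091394 and chr3:154316804-154316817. Against all other annotated genes, Prrx2, Barx1, Lhx8 and Twist1 shared 0 stretches of 50 bases, and Prrx1 shared 0.171% of its own. Twist2 shared 45.7% with a single gene, the antisense transcript Gm29100, Pitx1 shared 6.79%, Pax9 3.5% and Lhx6 1.59%. Gm29100 had means of only 1.21 and 1.06, beside 42.2 and 41.1 for Twist2 itself, and whether counting used strand is not given in the sources used here. The antisense transcripts Gm47071 across Pitx1 (0.825 and 0.881) and Gm15524 across Pax9 (0.138 and 0.306) were also scarce.

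Barx1 was the most abundant member. Its control mean was 178.3, above 96.3% of all genes' control means. Pitx1 followed at 87.8, and Prrx1 at 49.0 led a group of 5 genes of similar level that also held Prrx2 (43.4), Twist2 (41.1), Lhx6 (39.0) and Twist1 (34.0). Pax9 (16.6) and Lhx8 (13.9) were the lowest, still above 58.3% and 54.6% of genes. The highest control mean was 12.9 times the lowest. No spread is given, so whether neighbours in this order differ beyond their error cannot be stated.

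Levels of different genes can be compared only per transcript length, and the sources used here do not say whether the deposited means already allow for it. Divided by the exonic length of each gene in kb, the control means were 127.5 for Barx1, 33.1 for Pitx1, 22.1 for Prrx2, 20.9 for Twist1, 12.9 for Twist2, 8.12 for Lhx6, 5.47 for Lhx8, 4.43 for Prrx1 and 3.29 for Pax9. Barx1, Pitx1, Twist2 and Lhx6 kept their places in the order. Prrx1, with 11.1 kb of annotated exons, moved from the third place to the eighth. Its paralog Prrx2 has 1.96 kb, so the PRRX pair stood near equal by deposited mean (a ratio of 1.13 in the control), while per kb Prrx1 stood at 0.200 of Prrx2. Twist1 likewise had the lower deposited mean of its pair and the higher level per kb. Exonic length here merges the exons of all annotated transcripts, 5 for Prrx1, 4 for Prrx2 and 1 each for Barx1 and Twist1. It can exceed the length of the transcripts expressed, so the order per kb depends on the annotation.

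**Figure D1:**
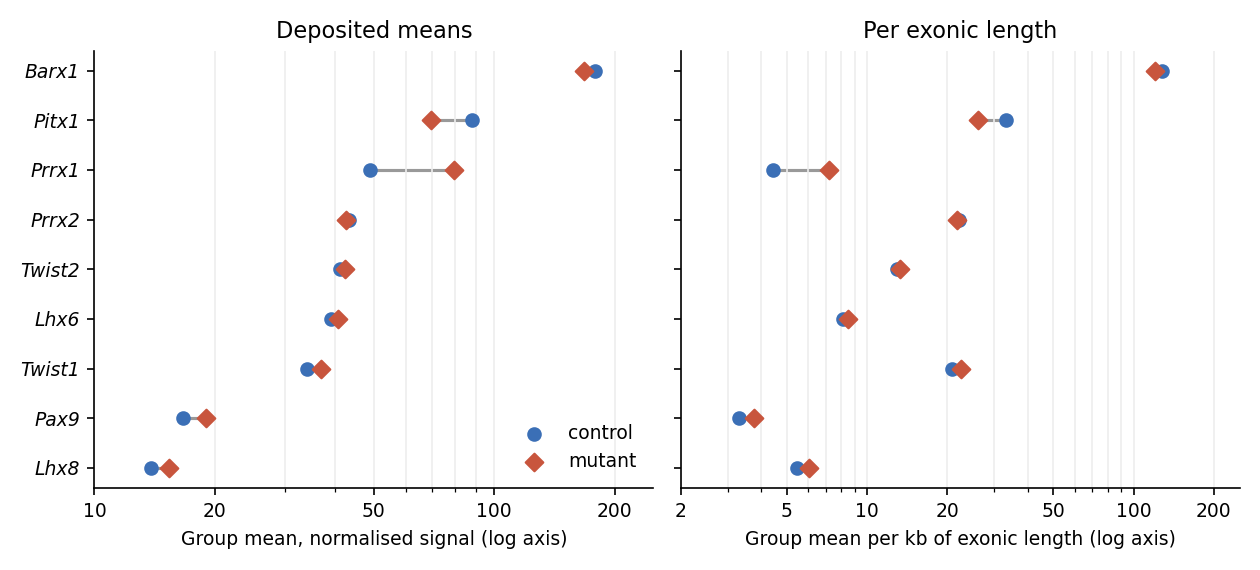
Group means of the 9 measured regulators in control (circles) and mutant (diamonds) molars, as deposited (left) and per kb of exonic length (right), on log axes. Each point is the mean of 4 libraries without an error bar. Prrx1 shows the widest gap, from 49.0 to 79.4, and its place in the order depends on whether length is divided out.

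Between the groups, 1 of the 9 members passed an adjusted p of 0.05, Prrx1, and it was higher. Of all genes, 0.788% passed, 0.471% higher and 0.318% lower. None of the 9 was called lower. At an unadjusted p under 0.05 there were 2, Prrx1 (higher) and Pitx1 (lower), and 19.3% of all genes reached that level. With 9 genes, a share of 2 is near that background. By sign alone 6 members had a higher mean in the mutant and 3 a lower one, with a median log2 ratio of 0.06 beside 0.00 over all genes. Added together, the 9 means came to 513.4 in mutants and 503.2 in controls. Without Prrx1 the sums were 434.0 and 454.2.

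Prrx1 lies at chr1:163245119-163313710 (GRCm38, minus strand, protein-coding, 5 annotated transcripts). Its mean was 79.4 in mutants and 49.0 in controls in the authors' deposited table, which is 1.62-fold higher (p = 0.000233, adjusted p = 0.0474). The mutant group is thus the higher one, and overlap of single libraries cannot be examined. Prrx1 ranked 86th by p-value of the 139 called genes, whose adjusted p-values ran up to 0.0489, so it stood near the threshold. Among the 4439 genes with a control mean within 2-fold of its own, 26 genes (0.586%), Prrx1 included, had a log2 ratio as far from zero in either direction, and 6 of these were as high.

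Prrx2 lies at chr2:30834972-30881251 (plus strand, protein-coding) and did not pass the threshold. Its means were 42.6 in mutants and 43.4 in controls (log2 ratio -0.03, the authors' adjusted p = 0.931). The log2 ratios of Prrx1 and Prrx2 differed by 0.72, a difference that could not be tested without values per library. Prrx1 made up 53.0% of the summed deposited means of the pair in the control and 65.1% in the mutant. Per kb of exonic length its shares were 16.7% and 24.8%. The means of the pair summed to 92.4 in controls and 121.9 in mutants.

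The genes with the highest levels had lower means in the mutant, without passing. Pitx1 (chr13:55825051-55836192, minus strand, protein-coding) had 69.4 in mutants and 87.8 in controls, a log2 ratio of -0.34 (the authors' p = 0.0143, adjusted p = 0.162). That placed it second among the members by p-value, and 7.29% of genes of like level were as far from zero. Barx1 (chr13:48662998-48666507, plus strand, protein-coding) had 168.0 and 178.3, a log2 ratio of -0.09 (the authors' adjusted p = 0.625). Barx1 held 32.7% of the members' sum for mutants and 35.4% for controls.

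Pax9 and the LIM-homeobox pair had slightly higher means in the mutant. For Pax9 (chr12:56691767-56712822, plus strand, protein-coding) they were 19.0 and 16.6, a log2 ratio of 0.19 (the authors' p = 0.160, adjusted p = 0.432). Lhx8 (chr3:154306294-154330659, minus strand, protein-coding) stood at 15.4 and 13.9 (log2 ratio 0.15, the authors' adjusted p = 0.684), and Lhx6 (chr2:36081953-36105408, minus strand, protein-coding) at 40.6 and 39.0 (log2 ratio 0.06, adjusted p = 0.877). Lhx6 made up 73.8% of its pair's deposited means in the control and 72.6% in the mutant. Per kb of exonic length its shares were 59.8% and 58.2%.

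The TWIST genes, whose products restrain RUNX2, stayed close to the control level. Twist1 (chr12:33957671-33959829, plus strand, protein-coding) had means of 36.8 in mutants and 34.0 in controls (log2 ratio 0.11, the authors' adjusted p = 0.766). Twist2 (chr1:91801461-91848028, plus strand, protein-coding) had 42.2 and 41.1 (log2 ratio 0.04, the authors' adjusted p = 0.924). Twist1 accounted for 45.3% of the pair's deposited means in the control and 46.6% in the mutant. Per kb of exonic length its shares were 61.8% and 62.9%. A p-value that misses the threshold does not show that the levels were the same.

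**Figure D2:**
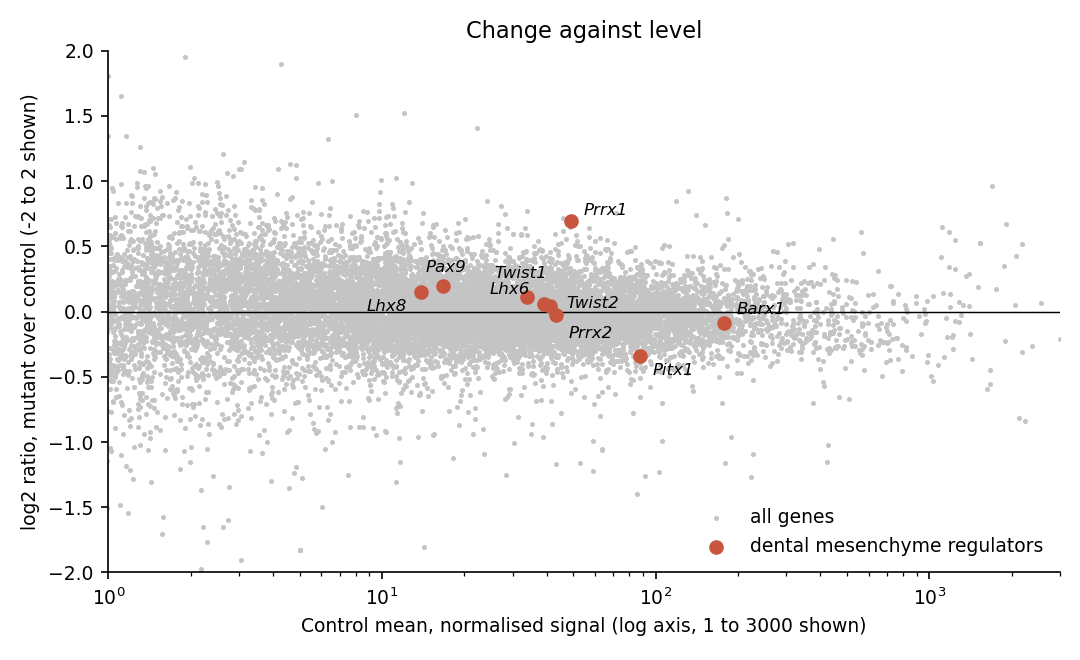
The log2 ratio of mutant to control against the control mean (log axis) for all genes in the range shown (grey) and the 9 regulators (red). Prrx1, at 0.70, lies above nearly all genes of its level, Pitx1, at -0.34, near the lower edge, and the other 7 lie between -0.09 and 0.19.

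Across the table the ratios fell as the GC content of a gene's transcripts rose, and the members' ratios fell with it too. Over 13107 protein-coding genes with a higher group mean of at least 1, the median log2 ratio went from 0.19 in the eighth with the least GC to -0.13 in the eighth with the most. Prrx1, with 43.4% GC, is the member with the least, and 13.9% of those genes are at or below it. Pax9 has 48.4%, Lhx8 53.3%, Twist2 54.2%, Lhx6 55.9%, Twist1 59.3%, Prrx2 61.5%, Barx1 65.0% and Pitx1 66.5%, with 99.8% of the genes at or below Pitx1. Over the 9 members Spearman's rho between GC content and log2 ratio was -0.93, and over the 13107 genes it was -0.44. These points all come from the same 8 libraries and share that trend, so the value is a description. Whether base composition had a part in the Prrx1 result was not tested beyond the following subtraction.

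When a smooth trend on GC content and exonic length was subtracted, Prrx1 no longer passed. Its log2 ratio went from 0.70 to 0.51 (recomputed from the authors' p-values, unadjusted p = 0.0151, adjusted p = 0.262). It was still the highest of the 9, of which 0 were called, and 0.237% of the 13107 genes were called in that analysis. Pitx1 went from -0.34 to -0.11 (recomputed from the authors' value, adjusted p = 0.585), which left it alone below zero among the 9. After the subtraction 6128 of the 13107 genes were above zero. Barx1 went from -0.09 to 0.15 and Prrx2 from -0.03 to 0.14, so the sign of both depended on the trend. Twist1 went from 0.11 to 0.28 (recomputed from the authors' value, adjusted p = 0.399), Lhx8 from 0.15 to 0.22, Lhx6 from 0.06 to 0.12, Twist2 from 0.04 to 0.11 and Pax9 from 0.19 to 0.16. The gap between Prrx1 and Prrx2 narrowed from 0.72 to 0.37. Spearman's rho between GC content and log2 ratio over the 9 members went from -0.93 to -0.58, so part of their descent with GC remained. The GC content of Prrx1 minus that of Prrx2 is -18.1 percentage points.

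**Figure D3:**
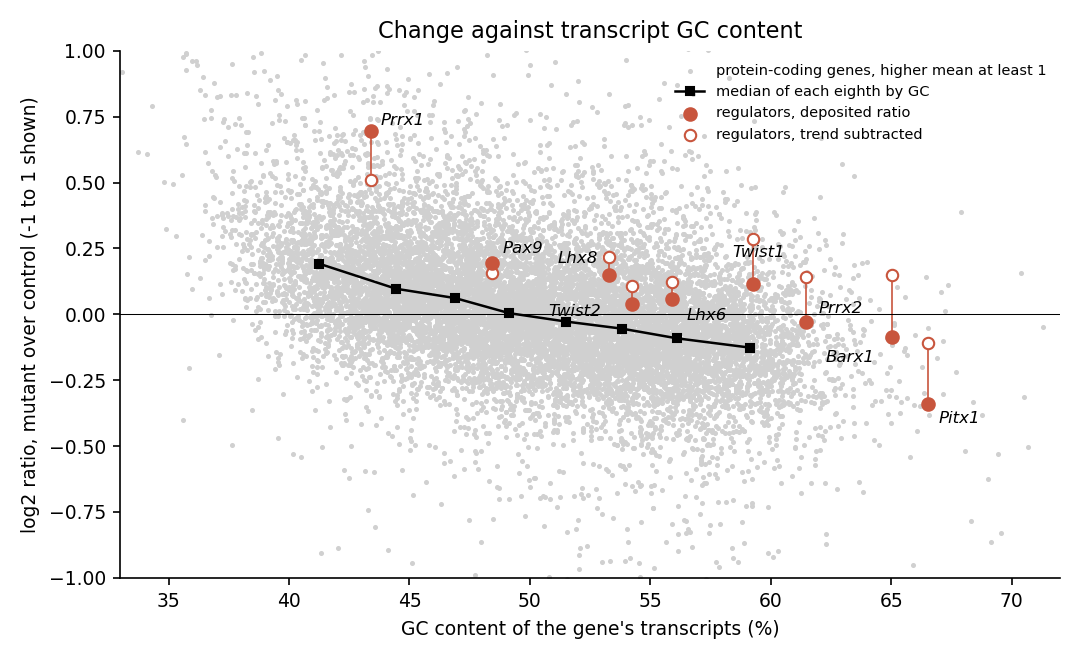
The log2 ratio of mutant to control against transcript GC content for protein-coding genes (grey), the median of each eighth of them by GC (black squares) and the 9 regulators before (filled) and after (open) subtraction of the trend on GC content and length. The regulators descend from Prrx1 at 43.4% GC to Pitx1 at 66.5%. After subtraction 8 of 9 lie above zero, beside 6128 of all 13107 genes.

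The other members of the same gene families were mostly scarce or not analysed here. Of 33 relatives 11 were measured and none passed, with 5 at higher means and 6 at lower ones (median log2 ratio -0.10). The homeobox gene Shox2 had 14.9 and 11.2 (the authors' adjusted p = 0.284), and Alx4, a relative of Alx1, was scarce at 2.54 against 2.30 (adjusted p = 0.861). The LIM-homeobox gene Isl1 stood at 0.192 against 0.352 (the authors' adjusted p = 0.254), and the tendon factor Scx, a basic helix-loop-helix gene, at 1.77 against 2.27.

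The E proteins that pair with TWIST factors and the ID proteins that sequester them were abundant. Of these 7 genes, 0 were called (median log2 ratio 0.00). Tcf4, an E protein, had 152.6 in mutants and 127.0 in controls (the authors' p = 0.00567, adjusted p = 0.115), and Tcf3, another, 96.7 and 110.1 (adjusted p = 0.353). The ID genes Id3, Id4 and Id1 had log2 ratios of -0.09, 0.06 and -0.09. Among 9 cofactors that LIM-homeodomain proteins use or compete for, 0 passed (median 0.12, or 0.04 after the GC and length subtraction). The adaptor Ldb1 stood at 80.3 and 84.2 (the authors' adjusted p = 0.711), its relative Ldb2 at 7.56 and 5.77 (adjusted p = 0.189), Ssbp4 at 56.2 and 73.0 (adjusted p = 0.101), Ssbp3 at 102.1 and 94.0 (adjusted p = 0.313) and Lmo4 at 49.5 and 53.5 (adjusted p = 0.779). The 4 zinc finger genes Snai1, Snai2, Zeb1 and Zeb2, which act in mesenchymal programmes as TWIST factors do, gave 0 calls (median 0.18, or 0.07 after the subtraction). Zeb2 had 89.5 and 68.3 (the authors' p = 0.00463, adjusted p = 0.108), Snai2 43.5 and 38.4 (adjusted p = 0.230), Zeb1 31.0 and 27.3 (adjusted p = 0.343) and Snai1 30.1 and 36.8 (adjusted p = 0.352).

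None of 33 other measured transcription factors and signals of the tooth mesenchyme passed, of a list of 34. Of these, 17 had higher and 16 lower means (median log2 ratio 0.01). An unadjusted p under 0.05 was reached by 5, 2 higher and 3 lower, beside 19.3% of all genes. The adjusted threshold was passed by 0.788% of all genes, and 0 calls in lists this short is near that share. By the authors' p-values the lowest belonged to Bmp4, the mesenchymal signal that acts in a loop with Msx1 and Pax9 in tooth germs, at 81.8 in mutants and 111.2 in controls (adjusted p = 0.0907). Tfap2b, a neural crest factor, had 13.1 and 6.55 (the authors' adjusted p = 0.102), the widest fold of the list at 2.00. The homeobox gene Dlx2 had 136.3 and 167.1 (the authors' adjusted p = 0.121) and Dlx3 424.1 and 494.0 (adjusted p = 0.213). The most abundant was the matrix gene Tnc, at 1705 and 1398 (the authors' adjusted p = 0.358). Sdc1, a cell surface proteoglycan of condensing tooth mesenchyme, stood at 431.0 and 469.2 (the authors' adjusted p = 0.529), and Nfic, a factor required for root formation, at 326.7 and 339.3 (adjusted p = 0.763).

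**Figure D4:**
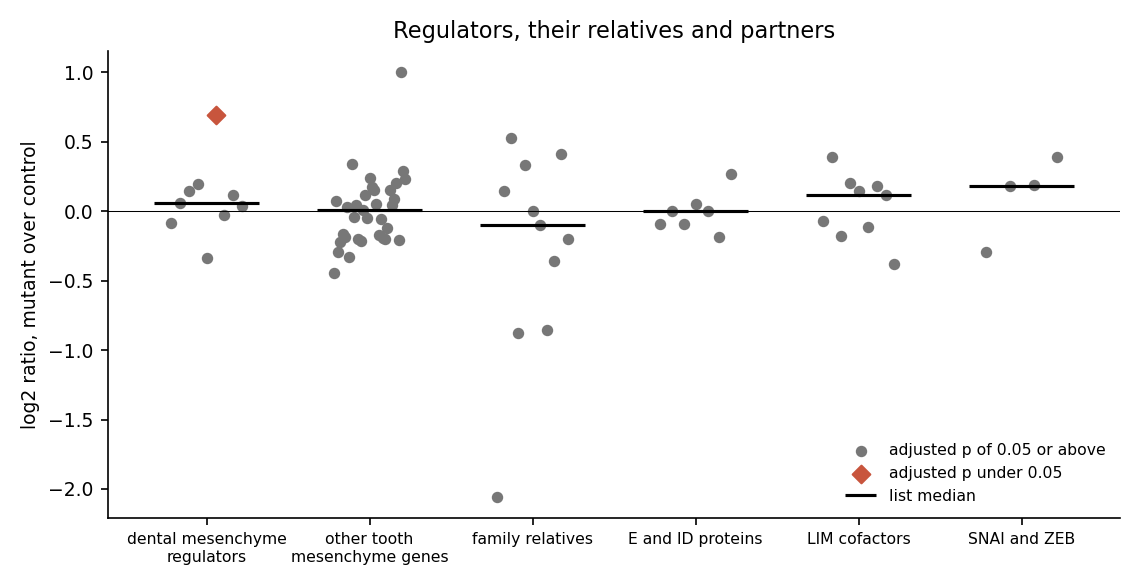
The log2 ratio of mutant to control for each measured gene of the regulators, of the list of other tooth mesenchyme genes, of their family relatives, of the E and ID proteins and the LIM cofactors, and of the SNAI and ZEB genes, with the median of each list as a bar. Prrx1 is the 1 gene of the 73 plotted that passed (diamond), and list medians run from -0.10 to 0.18.

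Markers of several cell types differed between the groups beside the Prrx1 result. In bulk tissue, fewer cells of a type and less RNA per cell cannot be told apart. The shares of all genes called were 0.471% higher and 0.318% lower. Of 11 markers of the dental follicle and periodontal ligament, mesenchymal tissues around the root, 7 had higher means and 1, Ogn, passed (214.3 and 119.0, the authors' adjusted p = 0.0330). The 4 with lower means were Scx, Pthlh, Pth1r and Tnmd (log2 ratios -0.36, -0.25, -0.16 and -0.11). Summed over the 11, the means were 4293 in mutants and 3405 in controls (median log2 ratio 0.35). Most of both sums came from Igfbp5, at 2392 and 1877 (the authors' adjusted p = 0.197). Postn stood at 326.7 and 200.2 (the authors' adjusted p = 0.0590). After the GC and length subtraction the median of the 11 was 0.07, with 6 above zero and 5 below. Ogn no longer passed (recomputed from the authors' value, adjusted p = 0.303). All 10 cell division markers had higher means, 2 of them past the threshold (Mki67 and Cenpf), with sums of 262.9 and 193.6 and a median of 0.38, or 0.36 after the subtraction. All 12 osteoblast markers had lower means, 2 of them past the threshold (Sp7 and Bglap), and the median was -0.48, or -0.32 after the subtraction. The osteoblast sums of 48705 and 50818 are carried by Col1a1, which odontoblasts also make. The 6 odontoblast markers gave 0 calls (median -0.04), and the 9 of dental epithelium gave 0 (median 0.04). All 6 measured erythroid markers had lower means, 1 of them past the threshold (Hba-a1), with sums of 424.6 and 944.2 and a median of -1.09, or -0.91 after the subtraction. No measured marker of these types is at zero in either group, but no deposited gene is, the lowest mean being 0.0246. The absence of zeros therefore says nothing about which cell types were present. The 8 ameloblast markers gave 0 calls (median -0.50, sums 178102 and 262629). Most of both sums came from Amelx, at 112174 and 174946 (the authors' adjusted p = 0.457). After the subtraction the ameloblast median was -0.49, with all 8 below zero. The 5 measured of 8 skeletal muscle markers were all lower in mean and near zero, with sums of 2.41 and 4.87. Among 8 smooth muscle and pericyte markers 2 were called lower, Acta2 and Tagln (median 0.07). Median log2 ratios were 0.11 for 6 endothelial, 0.17 for 6 macrophage and -0.21 for 6 nerve and glia markers, with 0 calls in each. The subtraction moved the macrophage median to 0.36, with all 6 above zero, the endothelial one to 0.20 and the nerve and glia one to -0.06. Of the 8 markers called in these lists, 0 were called after the subtraction, where their recomputed adjusted p-values lay between 0.0579 and 0.307. Past the threshold there, and not before, were 2 markers, both higher, Krt15 of the dental epithelium (recomputed from the authors' value, adjusted p = 0.0158) and Ngfr of the nerve and glia list (adjusted p = 0.0309). The part of these shifts in the Prrx1 value was not tested.

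Genes beside the members on the chromosome gave no calls. Of the 18 measured genes nearest to the 9 members, 1 on each side, 0 passed, beside 0.788% of all genes. Their median log2 ratio was 0.01. Beside Prrx1, Gorab lies 71.2 kb away with a log2 ratio of 0.16 (the authors' adjusted p = 0.583) and Fmo2, 346.4 kb away, had 0.998 and 1.04 (adjusted p = 0.930). The lowest adjusted p, 0.0914, belonged to Asb6, 4.64 kb from Prrx2, at 16.5 and 22.0. Hdac9, 87.8 kb from Twist1, stood at 4.83 and 2.89 (the authors' adjusted p = 0.108), Slc44a5, 34.6 kb from Lhx8, at 3.11 and 1.72 (adjusted p = 0.135), and the pseudogene Cox6c2, 317.9 kb from Pax9, at 0.129 and 0.291 (adjusted p = 0.189). Slc25a21, which overlaps Pax9 on the opposite strand, had 1.40 and 1.33 (the authors' adjusted p = 0.885).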

How the data were processed

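RNA from 8 libraries, 4 per genotype, was sequenced with 50-nt paired reads. STAR 2.6.1d, Partek and mm10 are named, without roles, in the submitters' processing notes. The sources used here give no annotation, counting method, normalisation or model. Per the file headers, the deposited table compares knockout with wild type, called mutant and control here. The group means and the total deposited by the authors are normalised signal on a linear scale, and the total equals 4 times the summed means for all 17631 genes (relative tolerance 1e-06). The deposited ratio is mutant over control, and the signed fold change, a score per the file headers and values, restates it. The deposited p-value and FDR are the authors', and the FDR equals the Benjamini-Hochberg adjustment over the 17631 genes.

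The planned count test needed values per library, so the authors' adjusted p under 0.05 was used. The labels do not say whether libraries are separate animals, so p-values may measure partly technical spread. The members and lists were chosen with earlier results of these data known. Named genes are the 9 members, Runx2, Gli1, nearest or overlapping measured genes, and from each list called genes, the 4 with the highest control means and the 3 with the lowest p. Dspp, Krt14, the Y-linked genes and the cell type markers with values were added after their values were seen. Some genes that the rule names are not reported here. Symbols matched GENCODE M21 (GRCm38, the assembly of mm10) for 17530 genes (99.4%). GC content was taken over all transcripts of a gene, and length as merged exons. A trend of signed z and log2 ratio on both was fitted with mgcv 1.9.3 (R 4.3.3), which took 25.9% of the variance of z, subtracted, and p-values re-adjusted over 13107 genes. The step was checked on simulated data. Other alternatives were adjustment over genes with a mean of at least 1, a threshold of 0.10, 1 added to means, and 2 rescalings. Tables were handled in Python 3.11.15 with pandas 2.3.3.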

Additional observations from a re-analysis of the deposited data

How the results depend on the processing

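Prrx1 passed with p-values adjusted over genes whose higher mean was at least 1 (recomputed from the authors' p-values, adjusted p = 0.0394) and lost its call when the GC and length trend was subtracted, where 0 members were called. That subtraction left 20 genes called higher and 11 lower among the 13107 it covers, against 83 and 56 of 17631 and against 106 and 62 under that first adjustment. At a threshold of 0.10, 354 were higher and 287 lower, no further member passed, and 1 gene of the tooth mesenchyme list, Bmp4, did. Centring on the median gene or scaling to equal sums without the 10 most abundant genes changed the sign of no member, nor did adding 1 to both means (Prrx1 between 0.68 and 0.71). These scalings moved the median of all genes by under 0.1. The median of the E-protein and ID-protein list, near zero, changed sign with the scaling to equal sums (0.01), and that of the family relatives with the GC and length subtraction (-0.10 to 0.18, over the 5 of 11 that it covers). The same subtraction took the SNAI and ZEB median from 0.18 to 0.07 and that of the LIM cofactors from 0.12 to 0.04. The cause was not tested for any of these shifts.

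No paired analysis was possible because the deposited columns are group means without replicate numbers. The library titles do carry the same numbers in both groups, but what these mark is not given in the sources used here. Leaving out single libraries, DESeq2 and a low-count filter were not run because there are no values per library. The depth of each library is unknown.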
